A study of Mus musculus with 12 samples.

Results

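Potassium channel genes were taken as all gene symbols of the count table that start with Kcn, without the antisense transcript Kcnq1ot1. This gave 86 genes of 22317 in the table, and all 86 were found in the GENCODE M21 annotation of mm10. They were grouped by symbol into 15 pore subunits of voltage-gated (Kv) channels, 6 silent Kv subunits, 5 KCNQ channels and 8 channels of the EAG, ERG and ELK families. The rest were 8 channels of the calcium- and sodium-activated families, 14 inward rectifiers, 12 two-pore-domain channels, 15 auxiliary subunits and 3 antisense transcripts.

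Potassium channels let potassium leave or enter the cell and so set its resting voltage and how fast it returns to rest after excitation. Kv and KCNQ pore subunits open when the membrane is depolarized, and most channels of the calcium- and sodium-activated families open with the ion that entered. Inward rectifiers hold the resting voltage or clear potassium, and two-pore-domain channels carry a leak. In brain, neurons hold most of the Kv repertoire and astrocytes hold the inward rectifier that takes up potassium. In bone and marrow, osteoclasts, macrophages, granulocytes and vessel wall cells use other inward rectifiers, leak channels and the intermediate-conductance calcium-activated channel.

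The 12 libraries came from wild-type male BALB/c mice aged 8 weeks, 3 in each of 4 groups, and carried no transgene. SB2 and SB4 are labelled brain cortex on day 2 and day 4 after photothrombosis (PT) of the skull, in which a laser and a dye in the blood close the vessels of a small area. BS2 and BS6 are labelled interparietal bone on day 2 and day 6 after PT of the brain. Libraries of control mice or of the injured site were not used here, and all contrasts are between the 4 groups. The labels do not tie each library to an animal, and p-values measure the spread between these libraries.

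The labelled tissue went against its defining markers in SB2 and BS2. The 12 neuron markers summed to 49.0 to 99.9 CPM (counts scaled to library size with TMM factors) in SB2, which is labelled brain cortex, and to 10466 to 10681 CPM in BS2, which is labelled bone. The 8 measured osteoblast and osteocyte markers summed to 68513 to 78210 CPM in SB2 and to 39347 to 159940 CPM in BS6, against 27.2 to 53.5 CPM in SB4 and BS2, where Ibsp and Sp7 lay under 1 CPM. SB2 and BS6 are therefore called bone-rich and SB4 and BS2 brain-rich below, and every group is named by its label only. Each comparison between days is at the same time a comparison of bone-rich with brain-rich libraries, and day and tissue content cannot be told apart in it. In tissue RNA of this kind, fewer cells of a type cannot be told apart from less RNA per cell. Library totals lay between 14126082 and 18972654 counts, so that a gene without a count may still lie at up to 3 counts, or 0.163 to 0.218 CPM. Such limits cover counting error only.

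Sequences before the start site are shown for 4 members with strongly one-sided levels, Kcnj15 and Kcnn4 on the bone-rich side and Kcnj3 and Kcnh5 on the brain-rich side, which were picked as examples after their values were seen. Other members with changes of like size are not printed, such as Kcnj6 and Kcnc2, or had no matched sequence, such as Kcnq3 and Kcnk9. Each is the 250 bases upstream of the RefSeq start on GRCm38.p6, 5′ to 3′ on the gene's strand, and capitals mark the GC box GGGCGG or its reverse complement CCGCCC.
Kcnj15 (chr16:95257308-95257557, + strand): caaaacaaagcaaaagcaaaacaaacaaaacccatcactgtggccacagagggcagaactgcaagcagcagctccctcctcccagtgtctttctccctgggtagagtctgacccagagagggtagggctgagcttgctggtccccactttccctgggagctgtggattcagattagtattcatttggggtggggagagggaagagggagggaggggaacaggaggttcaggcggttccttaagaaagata
Kcnn4 (chr7:24370013-24370262, + strand): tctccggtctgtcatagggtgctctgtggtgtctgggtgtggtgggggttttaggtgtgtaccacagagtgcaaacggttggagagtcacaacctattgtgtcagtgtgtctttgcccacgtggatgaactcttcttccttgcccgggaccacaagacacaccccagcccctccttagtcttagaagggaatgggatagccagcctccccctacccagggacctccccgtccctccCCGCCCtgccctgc
Kcnj3 (chr2:55435720-55435969, + strand): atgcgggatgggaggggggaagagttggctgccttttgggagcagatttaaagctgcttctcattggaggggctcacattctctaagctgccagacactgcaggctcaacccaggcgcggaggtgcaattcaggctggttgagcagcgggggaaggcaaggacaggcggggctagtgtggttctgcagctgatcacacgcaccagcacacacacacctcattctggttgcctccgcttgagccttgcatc
Kcnh5 (chr12:75177333-75177582, − strand): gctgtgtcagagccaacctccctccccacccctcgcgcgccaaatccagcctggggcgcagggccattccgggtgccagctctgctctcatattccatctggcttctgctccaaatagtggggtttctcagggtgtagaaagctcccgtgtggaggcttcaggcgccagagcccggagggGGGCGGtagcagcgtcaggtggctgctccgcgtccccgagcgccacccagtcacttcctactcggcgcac

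The 4 sequences differed in their CpG count, with 1 in Kcnj15, 6 in Kcnn4, 7 in Kcnj3 and 16 in Kcnh5. A GC box was read in Kcnn4 and Kcnh5 and not in the other two. Upstream sequences were matched for 64 of the 86 members. A GC box on either strand lay in 50% of these 64 windows and in 32.9% of the windows of all 27025 genes, and the median CpG count was 9.5 against 6. The 27025 are all genes with a RefSeq start, counted here or not, each with its first listed start. For the members the start nearest the annotated 5′ end was taken, so the windows were not picked alike. Among the members called higher in SB4 and lower in BS6 (see the counts that follow), 41 had a window, with a median of 14 CpG and a GC box in 51.2%. Among those called in the reverse directions, 7 had a window, with a median of 6 CpG and a GC box in 42.9%. The TATA box letters TATAAA, on either strand, lay in 3.13% of the 64 windows and in 12.97% of all windows. These are matches of letters and no test was made of them.

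As a family, potassium channel transcripts were far more abundant in the brain-rich libraries. They held 0.694573% to 0.712411% of all counts in SB4 and 0.677874% to 0.686298% in BS2, against 0.0617072% to 0.0683516% in SB2 and 0.0560931% to 0.088582% in BS6. Summed over the 86 members, the level was 631 ± 28.1 CPM (SD, n = 3) in SB2, 7211 ± 196 CPM in SB4, 6913 ± 39.7 CPM in BS2 and 684 ± 137 CPM in BS6. The lowest brain-rich library, at 6877 CPM, lay far above the highest bone-rich one, at 833 CPM, which was BS6 replicate 2.

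The make-up of the family differed as well as its amount. On levels per kilobase of exon, Kv pore subunits made up 26.2% of the family in SB4 and 25.7% in BS2, against 9.51% in SB2 and 10.04% in BS6. KCNQ channels made up 7.75% and 7.67% in the brain-rich groups and 2.02% and 2.35% in SB2 and BS6. The share of the two-pore-domain leak channels went the other way, with 18.3% of the family in SB2 and 22.2% in BS6 against 6.01% in SB4 and 6.07% in BS2. Their summed level did not, at 24.6 and 30.6 CPM per kb in SB2 and BS6 against 63.6 and 61.0 in SB4 and BS2. Inward rectifiers held 28.0% in SB2 and 17.5% in BS6, and 18.3% and 19.99% in SB4 and BS2.

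**Figure D1:**
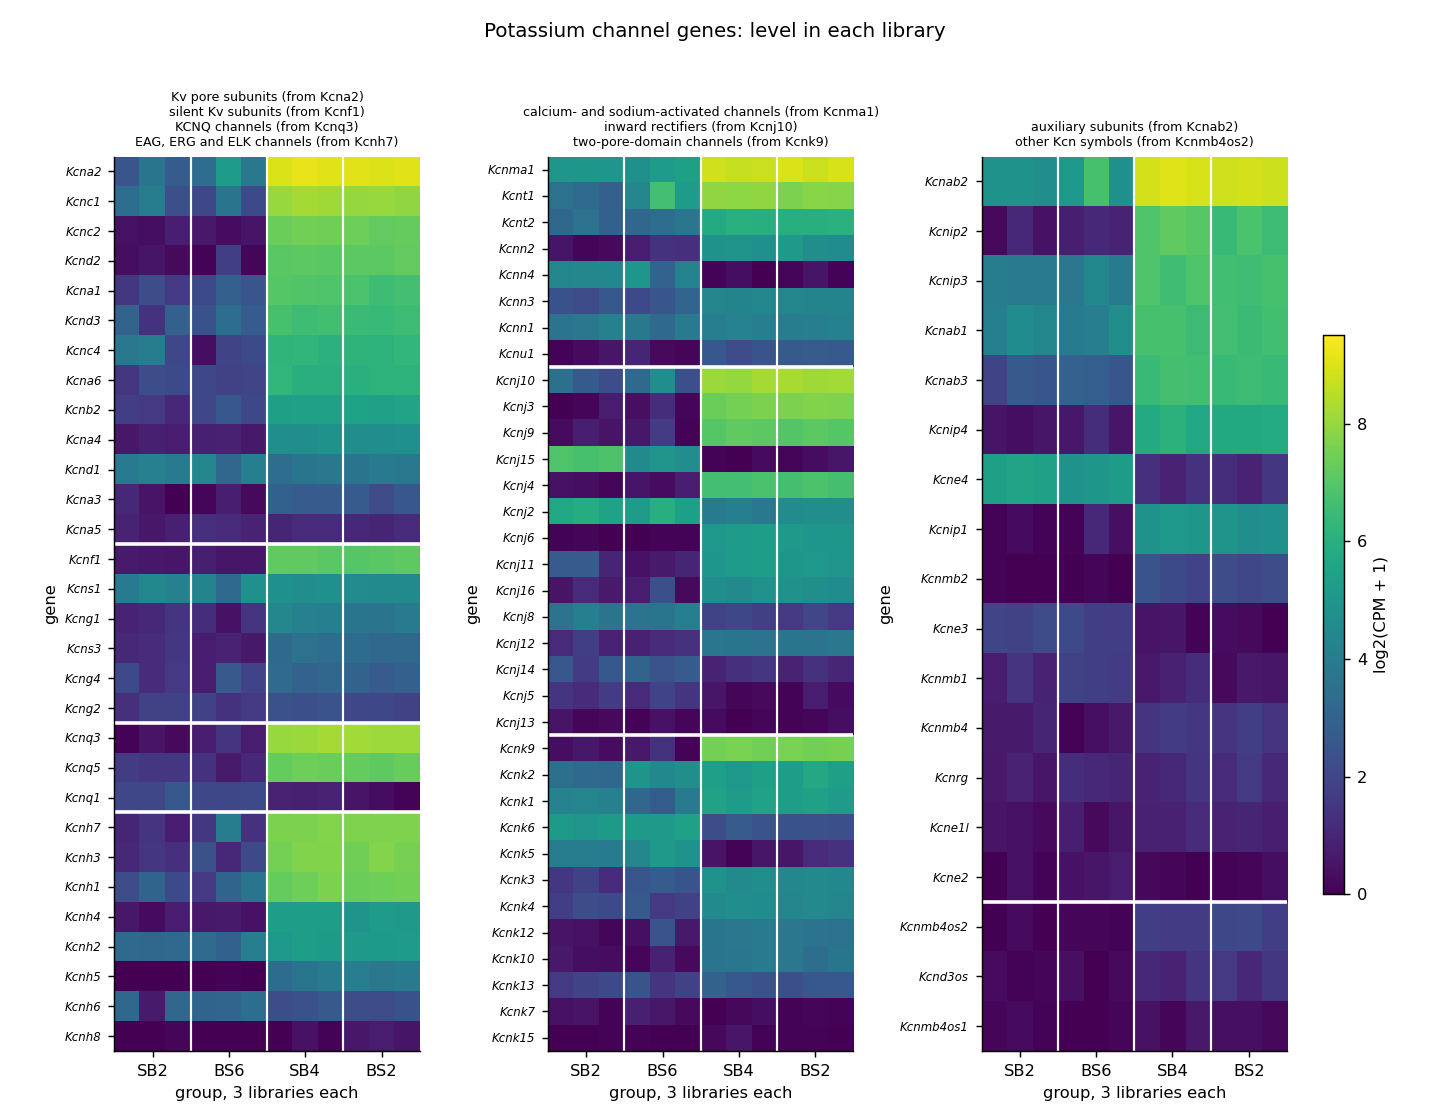
Level of 82 of the 86 potassium channel genes (rows, by class, with a white line between classes) in each of the 12 libraries (columns, 3 per group), as log2(CPM + 1) in colour. Most rows are bright in the 6 SB4 and BS2 libraries and dark in the 6 SB2 and BS6 libraries, and a few, such as Kcnj15, Kcne4 and Kcnk6, show the reverse.

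The first comparison asked how the libraries labelled brain cortex differed between day 4 and day 2 after skull PT. Of 80 members with enough counts to be tested, 60 were higher in SB4 than in SB2, 11 were lower and 9 were not called, by edgeR's quasi-likelihood test at a Benjamini-Hochberg adjusted p under 0.05 over all genes and an absolute log2 fold change over 1. Among all 17293 genes tested, 56.4% were called, 27.8% higher and 28.6% lower. By adjusted p alone 76 members passed, against 83.3% of all genes. DESeq2 called 71 of 86 members, against 47.7% of all genes. The median log2 fold change of the tested members was 3.82, against -0.01 for all genes, and it was the same with Kcnh5, which had no count in SB2, set at its lower bound. The libraries of both groups did not overlap for 76 members, or 95%, against 85.5% of all genes. A member could pass the filter on low counts through the group in which it is high. The 6 members not tested by edgeR (Kcne2, Kcnh8, Kcnj13, Kcnk7, Kcnk15 and Kcnmb4os1) did not exceed 0.782 CPM in any library.

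The second comparison set day 6 against day 2 after brain PT in the libraries labelled bone. Here 12 members were higher in BS6 than in BS2, 56 were lower and 12 were not called, of the same 80 tested. The shares among all 17311 genes were 55.5% called, 29.0% higher and 26.5% lower. By adjusted p alone 70 members passed, against 75.0% of all genes. DESeq2 called 70 of 85 members, Kcnh8 and Kcnk7 among them, against 48.2% of all genes. Here the median log2 fold change was -3.52 for the members and 0.02 for all genes. The libraries did not overlap for 73 members, or 91.25%, against 80.8% of all genes. Both comparisons shared no library. Of the members, 56 were higher in SB4 and lower in BS6, 10 were lower in SB4 and higher in BS6, and 7 were called in neither. Among all genes, 27.8% were higher in SB4 and 26.5% lower in BS6, while 28.6% were lower in SB4 and 29.0% higher in BS6. The share of all genes with each pair of calls is not given here. Kcnk2, Kcnk13, Kcng4 and Kcne1l were called higher in SB4 alone, Kcnj2 lower in SB4 alone, and Kcnh6 and Kcnmb1 higher in BS6 alone.

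**Figure D2:**
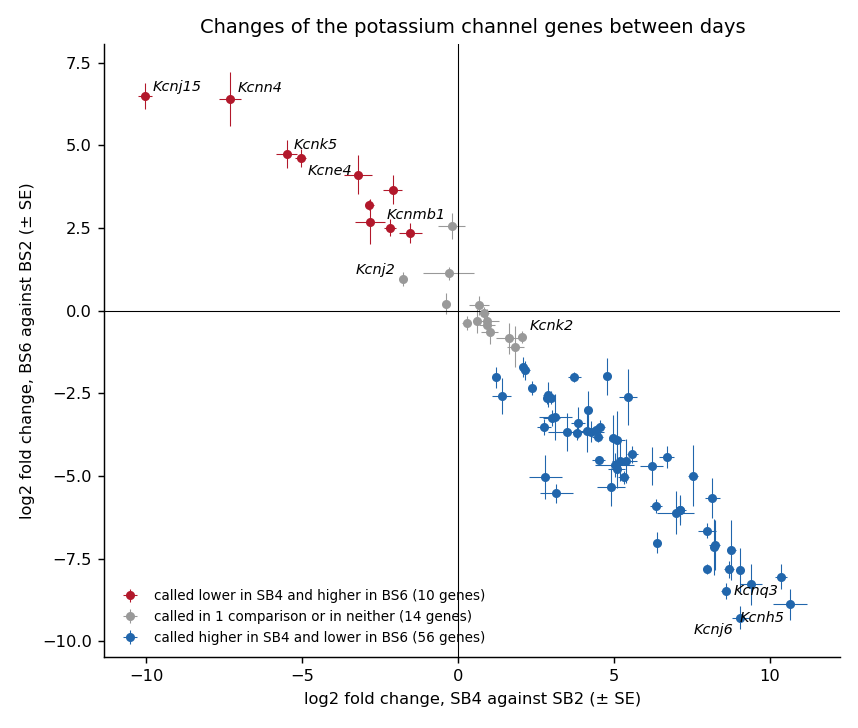
Log2 fold change of the 80 tested members in SB4 against SB2 (x axis) and in BS6 against BS2 (y axis), with standard errors. Blue points are the 56 members called higher in SB4 and lower in BS6, red points the 10 called in the reverse directions, and grey points the 14 called in 1 comparison or in neither. Kcnj15 lies at -10.04 and 6.49, and Kcnj6 at 9.05 and -9.29.

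Kv pore subunits carry the fast repolarizing currents of neurons. Of 15 members, 13 were higher in SB4 than in SB2 and the same number were lower in BS6 than in BS2, and none was called in the other direction. Kcna2, a channel of axons, stood at 4.73, 11.9 and 5.74 CPM in SB2, 497, 579 and 537 in SB4, 537, 517 and 536 in BS2 and 9.45, 36.8 and 12.9 in BS6. All brain-rich libraries thus lay above all bone-rich ones, and BS6 replicate 2 was the highest of the latter. The log2 fold change of Kcna2 was 6.20 (SE 0.36, adjusted p = 1.97e-05) in SB4 against SB2 and -4.70 (SE 0.57, adjusted p = 3.96e-04) in BS6 against BS2.

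Kcnd2, the A-type channel of dendrites, and Kcnc2, a fast channel of interneurons, changed most among the Kv pore subunits. Kcnd2 measured 134, 137 and 134 CPM in SB4 and 0.285, 0.466 and 0.183 in SB2 (log2 fold change 8.75, SE 0.14). It measured 136, 136 and 147 CPM in BS2 and 0.0652, 2.42 and 0.127 in BS6 (-7.24, SE 0.92, adjusted p = 4.89e-04), where replicate 2 alone was above 1 CPM. Kcnc2 lay at 166, 179 and 175 CPM in SB4 and at 0.342, 0.266 and 0.733 in SB2 (8.57, SE 0.16), and at 166, 150 and 153 in BS2 and 0.587, 0.242 and 0.445 in BS6 (-8.47, SE 0.24, adjusted p = 2.92e-06). All bone-rich libraries lay under 1 CPM for Kcnc2. Kcna1, the partner of Kcna2 in axons, stood at 1.88, 3.80 and 2.08 CPM in SB2, 128, 119 and 118 in SB4, 111, 92.7 and 101 in BS2 and 3.39, 6.52 and 4.65 in BS6. Kcna3, known for its role in T cells and microglia, was low throughout, at 6.67, 5.65 and 5.79 CPM in SB4 and 5.72, 3.46 and 5.01 in BS2, and at 1.14, 0.400 and 0 in SB2 and 0.130, 0.725 and 0.191 in BS6. It was also called higher in SB4 (3.503, SE 0.63) and lower in BS6 (-3.67, SE 0.57). The rise was 4.92 without SB2 replicate 1, and the fall -4.77 without BS6 replicate 2.

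Kcnd1 and Kcna5 were the Kv pore subunits called in neither comparison. Kcnd1, another A-type subunit, measured 14.3, 16.4 and 14.2 CPM in SB2 and 9.58, 12.01 and 12.6 in SB4, a log2 fold change of -0.38 (SE 0.13, adjusted p = 0.0207) under the fold threshold. It measured 11.6, 13.8 and 13.1 CPM in BS2 and 19.8, 7.79 and 16.0 in BS6, which overlap. Kcnd1 was the highest Kv pore subunit per kilobase in SB2, at 2.84 ± 0.24 CPM per kb, a level that did not differ beyond its spread from that of Kcnc4, at 2.83 ± 1.7.

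Silent Kv subunits form no channel alone and join the pores of other Kv subunits. Of 6 members, 4 were higher in SB4 and 3 were lower in BS6. Kcnf1 changed most and was the highest of the class in the brain-rich groups, at 143, 145 and 134 CPM in SB4 and 128, 132 and 139 in BS2. It lay at 0.627, 0.533 and 0.488 CPM in SB2 and 0.717, 0.483 and 0.509 in BS6, with log2 fold changes of 7.98 (SE 0.12) and -7.81 (SE 0.17, adjusted p = 2.75e-06). Kcns1 differed less between the groups, at 14.5, 20.8 and 16.7 CPM in SB2, 26.5, 25.2 and 26.3 in SB4, 23.1, 22.5 and 22.1 in BS2 and 18.5, 8.58 and 26.0 in BS6, and it was the highest of the class per kilobase in the bone-rich groups. It was higher in SB4 than in SB2 by 0.59 on the log2 scale (SE 0.13, adjusted p = 1.08e-03), with libraries that did not overlap, but under the fold threshold. Kcng1 rose in SB4 from 0.911, 1.13 and 1.71 CPM to 20.2, 17.2 and 16.3 (3.84, SE 0.22), and Kcns3 fell in BS6 from 9.20, 8.07 and 8.14 CPM to 0.652, 0.906 and 0.573 (-3.52, SE 0.25).

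KCNQ channels open slowly near the resting voltage and restrain repeated firing. Of 5 members, 3 were higher in SB4 than in SB2 and 1 was lower, and 3 were lower in BS6 than in BS2 and 1 was higher. Kcnq3, a channel of neurons, rose from 0.057, 0.400 and 0.183 CPM in SB2 to 262, 267 and 297 in SB4 (10.35, SE 0.19) and fell from 289, 275 and 278 in BS2 to 0.652, 1.69 and 0.700 in BS6 (-8.05, SE 0.38). The rise was 11.10 without SB2 replicate 2, and the fall -8.64 without BS6 replicate 2. Kcnq5 was likewise called in both comparisons. Kcnq1, the subunit of heart and epithelia, went the other way and is given with the bone-rich members.

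Channels of the EAG, ERG and ELK families are voltage-gated and carry a cyclic nucleotide binding fold. Of 7 members tested, 6 were higher in SB4 than SB2 and 6 lower in BS6 than BS2. Kcnh3, the highest of the class per kilobase in SB4 and BS2, measured 181, 207 and 208 CPM in SB4, 173, 211 and 189 in BS2, 1.14, 1.80 and 1.40 in SB2 and 4.17, 1.15 and 3.25 in BS6. Kcnh5 was at 9.15, 12.01 and 14.5 CPM in SB4 and had no count in SB2, at least 64.5-fold higher against a limit of 3 counts per library. In BS6 it had 1 count over all libraries, and the ratio of BS2 to BS6 was 669 with a 95% counting interval of 120 to 26457. Kcnh2, the ERG channel that repolarizes the heart, kept 8.77, 7.93 and 8.49 CPM in SB2 and 9.06, 6.83 and 15.8 in BS6, against 32.1, 38.9 and 35.3 in SB4 and 34.3, 35.5 and 35.8 in BS2. It was called in both comparisons (2.08, SE 0.11, and -1.70, SE 0.30).

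Kcnh7 and Kcnh6, both of the ERG family, had 1 library apart from the others. Kcnh7 measured 198, 198 and 212 CPM in SB4 and 0.968, 1.66 and 0.672 in SB2 (7.54, SE 0.16), and 203, 201 and 203 CPM in BS2 and 1.89, 14.9 and 1.53 in BS6. Its exons share 696 bases with Gca on the opposite strand, a gene that stood at 64.6 CPM in BS6 replicate 2 and at 5.09 and 10.8 CPM in the other BS6 libraries. Strand use in the counting was not stated, so reads of both genes cannot be told apart. Kcnh6 was at 8.03, 0.599 and 7.69 CPM in SB2, 3.76, 4.19 and 5.29 in SB4, 3.78, 3.52 and 4.29 in BS2 and 7.37, 7.61 and 9.80 in BS6. It was called higher in BS6 (1.13, SE 0.19, adjusted p = 1.72e-03), though not in a fit of all 12 libraries.

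Channels of the calcium- and sodium-activated families were mostly brain-rich, with 6 of 8 higher in SB4 and 6 lower in BS6. Kcnma1, the pore of the large-conductance BK channel, measured 451, 400 and 430 CPM in SB4 and 501, 431 and 485 in BS2. It kept 30.1, 31.4 and 30.9 CPM in SB2 and 26.5, 37.6 and 41.0 in BS6, with log2 fold changes of 3.80 (SE 0.08) and -3.71 (SE 0.20, adjusted p = 1.36e-05). The small-conductance channels differed among themselves. Kcnn2 rose in SB4 from 0.456, 0.133 and 0.183 CPM to 28.4, 29.4 and 26.0 (6.68, SE 0.24) and fell in BS6 from 33.2, 25.0 and 23.7 to 0.652, 1.63 and 1.40 (-4.42, SE 0.34), and the rise was 7.39 without SB2 replicate 1. Kcnn3 changed by 2.15 (SE 0.15) and -1.81 (SE 0.30). Kcnn1 was called in neither comparison, at 11.3, 12.7 and 16.9 CPM in SB2, 15.8, 17.5 and 15.9 in SB4, 14.98, 15.9 and 16.9 in BS2 and 13.2, 8.40 and 14.4 in BS6.

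Kcnt1, the sodium-activated Slack channel, was uneven in BS6. It measured 10.6, 9.06 and 6.53 CPM in SB2, 240, 235 and 240 in SB4, 195, 226 and 218 in BS2 and 20.3, 100 and 36.1 in BS6. The fall in BS6 was -1.99 (SE 0.57, adjusted p = 0.0175), and it was not called without BS6 replicate 3. Kcnn4, the intermediate-conductance channel of blood and vessel cells, was the member of this class that was high in the bone-rich groups.

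Inward rectifiers split into both directions, with 8 of 13 tested members higher in SB4 and 5 lower, and 8 lower in BS6 and 4 higher. Among those higher in the brain-rich groups were the G protein-gated channels of neurons. Kcnj3 (chr2:55435970-55598145) measured 163, 182 and 198 CPM in SB4 and 0, 0.133 and 0.672 in SB2 (9.38, SE 0.36, adjusted p = 3.99e-07), and 197, 206 and 204 CPM in BS2 and 0.326, 1.39 and 0.127 in BS6 (-8.28, SE 0.62, adjusted p = 4.99e-05). The size of the rise moved with the library left out, to 8.75 without SB2 replicate 1 and to 11.36 without replicate 3, and the fall was -9.72 without BS6 replicate 2. Kcnj6 had 3 counts in all over SB2, and the count ratio of SB4 to SB2 was 597 with a 95% counting interval of 204 to 2900. Of these counts 2 were in SB2 replicate 2, and leaving that library out moved the fold change by over 1.5 times. In BS6 Kcnj6 had 2 counts over all libraries, and the ratio of BS2 to BS6 was 762 with an interval of 211 to 6301. Kcnj9, their partner, was called in both directions as well.

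Kcnj10, the astrocyte channel that takes up potassium, was the highest inward rectifier per kilobase in SB4 and BS2, at 50.3 ± 3.7 and 54.1 ± 1.6 CPM per kb, and Kcnj4 at 47.8 ± 1.8 in SB4 did not differ from it beyond the spread. In CPM, Kcnj10 stood at 10.3, 5.46 and 3.72 in SB2, 269, 254 and 293 in SB4, 303, 285 and 290 in BS2 and 8.41, 23.9 and 4.01 in BS6. Its partner Kcnj16 stood at 0.399, 1.199 and 0.611 in SB2, 24.9, 21.4 and 27.2 in SB4, 27.3, 24.6 and 23.5 in BS2 and 0.652, 3.99 and 0.191 in BS6. Both were called in both comparisons, and both were highest in BS6 replicate 2 among the BS6 libraries. Of the 8 astrocyte markers, 7 were also highest in BS6 replicate 2 among the BS6 libraries, such as Slc1a2, at 25.5, 66.4 and 8.85 CPM, and Aldoc, at 10.4, 96.8 and 6.43 CPM. The exception was Gja1, at 448, 176 and 661 CPM, through which the sum of the list was lowest there, at 513 CPM. The part of astrocytes in these levels was not tested.

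The pores of channels gated by ATP went opposite ways. Kcnj11, the pore in neurons, muscle and beta cells, measured 30.4, 37.6 and 39.3 CPM in SB4 and 31.4, 32.1 and 29.9 in BS2, and 5.58, 5.59 and 0.977 in SB2 and 0.391, 0.604 and 0.955 in BS6. Kcnj8 (chr6:142564837-142571614), the pore in vessel muscle and pericytes, measured 11.3, 16.0 and 11.7 CPM in SB2 and 11.2, 12.1 and 16.0 in BS6, against 2.91, 3.21 and 2.451 in SB4 and 2.01, 3.07 and 1.96 in BS2. Its log2 fold changes were -2.18 (SE 0.20, adjusted p = 9.37e-07) and 2.51 (SE 0.26, adjusted p = 1.70e-04). Their regulatory subunits split in the same way. Abcc8, the usual partner of Kcnj11, was higher in SB4 (6.80, SE 0.27) and lower in BS6 (-6.01, SE 0.78), and Abcc9, the partner of Kcnj8, was lower in SB4 (-1.75, SE 0.14) and higher in BS6 (2.17, SE 0.24). The vessel wall markers, 8 genes of mural and endothelial cells, summed to 1465 to 2164 CPM in the bone-rich groups and to 213 to 320 CPM in the brain-rich ones, and their part in the level of Kcnj8 was not tested.

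Kcnj2 (chr11:111066164-111076821), the classical strong rectifier of muscle, vessels and macrophages, was present in all groups and highest in the bone-rich ones. It measured 49.2, 57.6 and 44.2 CPM in SB2, 14.3, 16.3 and 13.03 in SB4, 22.8, 25.7 and 24.6 in BS2 and 37.0, 60.9 and 39.6 in BS6. It was lower in SB4 than in SB2 (-1.78, SE 0.12, adjusted p = 6.88e-08). In BS6 against BS2 its rise of 0.95 (SE 0.21, adjusted p = 6.09e-03) was just under the fold threshold, and it was called without BS6 replicate 1 (1.09) or replicate 3 (1.06). In BS6 it was the highest inward rectifier per kilobase.

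Two-pore-domain channels carry the leak that sets the resting voltage. Of 10 tested, 8 were higher in SB4 and 2 lower, and 6 were lower in BS6 and 2 higher. Kcnk9, an acid-sensitive leak channel of neurons, changed most, from 0.285, 0.533 and 0.244 CPM in SB2 to 182, 194 and 179 in SB4 (9.03, SE 0.14), and from 190, 176 and 185 in BS2 to 0.587, 1.63 and 0.0636 in BS6 (-7.84, SE 0.67). Kcnk12 rose from 0.399, 0.333 and 0.122 CPM to 11.8, 12.6 and 13.6 (5.44, SE 0.28). It stood at 12.6, 11.1 and 10.7 in BS2 and 0.326, 4.47 and 0.573 in BS6 (-2.62, SE 0.85, adjusted p = 0.0288), and this fall was not called when BS6 replicate 3 or any 1 of the BS2 libraries was left out (-2.19 to -2.68). Kcnk10 fell in BS6 from 12.6, 9.93 and 11.9 CPM to 0.130, 0.846 and 0.191 (-4.79, SE 0.56).

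Kcnk1 and Kcnk13 had the smallest rises in SB4 among the called two-pore-domain channels. Kcnk1, the highest leak channel per kilobase in SB4 and BS2, measured 17.3, 19.05 and 16.5 CPM in SB2 and 43.1, 36.7 and 42.9 in SB4 (1.22, SE 0.10). In BS6 it measured 7.96, 5.92 and 14.5 CPM against 37.8, 42.5 and 37.2 in BS2 (-2.01, SE 0.32). Kcnk13, known as a leak channel of microglia, was at 2.05, 2.86 and 3.24 CPM in SB2, 7.09, 5.16 and 4.12 in SB4, 4.01, 5.06 and 5.08 in BS2 and 4.499, 1.75 and 2.55 in BS6. Its rise in SB4 of 1.01 (SE 0.26, adjusted p = 3.88e-03) lay at the fold threshold and was not called under 6 of 12 alternatives, without SB2 replicate 1 (0.83) or SB4 replicate 1 (0.79) among them.

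Auxiliary subunits have no pore and alter the gating or the trafficking of pore subunits. Of 14 tested, 10 were higher in SB4 and 2 lower, and 9 were lower in BS6 and 3 higher. Kcnab2, the cytoplasmic beta subunit of Kv channels, was the most abundant of them in the brain-rich groups, at 473, 524 and 484 CPM in SB4 and 450, 473 and 435 in BS2, against 28.8, 28.6 and 24.9 in SB2 and 32.7, 105 and 26.3 in BS6. All 4 calcium-binding KChIP subunits of A-type channels were called higher in SB4 and lower in BS6. Kcnip1 rose in SB4 by 8.14 (SE 0.24) and Kcnip2 by 7.98 (SE 0.28), and they fell in BS6 by 5.67 (SE 0.62) and 6.65 (SE 0.22) on the log2 scale. Without SB2 replicate 2 the rises were 8.86 and 8.91. Kcnip2 measured 118, 146 and 129 CPM in SB4 and 85.6, 112 and 91.2 in BS2. Kcnip3 was higher in the bone-rich groups than the other KChIP genes, at 14.8, 13.8 and 13.7 CPM in SB2 and 12.5, 20.4 and 14 in BS6. Its changes, of 2.97 (SE 0.10) and -2.63 (SE 0.20), were the smallest of these genes. Kcnip4 rose by 7.12 (SE 0.20) and fell by 6.01 (SE 0.37), or by 6.67 without BS6 replicate 2.

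The beta subunits of the BK channel did not share 1 pattern. Kcnmb2 fell in BS6 from 3.72, 3.07 and 3.78 CPM to 0, 0.121 and 0, which is 2 counts, and the ratio of BS2 to BS6 was 83.7 with a 95% counting interval of 22.8 to 697. These counts were all in BS6 replicate 2, and leaving that library out moved the fold change by over 1.5 times. Kcnmb1, the subunit of smooth muscle, measured 0.683, 1.73 and 0.916 CPM in SB2, 0.567, 0.815 and 1.39 in SB4, 0.177, 0.576 and 0.508 in BS2 and 2.61, 2.42 and 2.23 in BS6, and it was called higher in BS6 (2.56, SE 0.40, adjusted p = 1.17e-03). The antisense transcripts Kcnd3os and Kcnmb4os2 were low and brain-rich. Kcnmb4os2 lay at 2.41, 2.17 and 2.12 CPM in SB4, 3.19, 3.27 and 2.40 in BS2 and did not exceed 0.200 CPM in a bone-rich library. Kcnd3os rose in SB4 (3.11, SE 0.52) and fell in BS6 (-3.20, SE 0.70), by 2.61 without BS6 replicate 2 and by 4.00 without replicate 1. Kcnmb4os1 was not tested. Exons of 24 members overlap those of another counted gene, these antisense pairs among them, so their counts are uncertain without knowledge of strand use.

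A set of 10 members was higher in both bone-rich groups: Kcnj15, Kcnn4, Kcnk5, Kcnk6, Kcne4, Kcne3, Kcnj14, Kcnj8, Kcnj5 and Kcnq1. This direction was less frequent among the members than among all genes. Members lower in SB4 made up 13.75% of those tested, against 28.6% of all genes. Those higher in BS6 made up 15%, against 29.0%. Kcnj15 (chr16:95257558-95300260), an inward rectifier known from kidney and stomach, measured 118, 107 and 114 CPM in SB2 and 22.1, 30.3 and 24.2 in BS6. It measured 0.0709, 0 and 0.223 CPM in SB4 and 0.118, 0.256 and 0.508 in BS2, with log2 fold changes of -10.04 (SE 0.23, adjusted p = 1.62e-11) and 6.49 (SE 0.39, adjusted p = 2.01e-05). Without SB4 replicate 2 the fall in SB4 was -9.40 and without replicate 3 -11.51. No other member had a larger fall in SB4, and Kcnj15 was the highest member per kilobase of its class in SB2. Its upstream sequence, shown above, had the fewest CpG of the 4 printed.

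Kcnn4 (chr7:24370263-24386690) was close to equal in SB2, at 19.5, 20.2 and 20.8 CPM, and uneven in BS6, at 30.5, 6.89 and 18.1 CPM. In the brain-rich libraries it did not exceed 0.448 CPM. The log2 fold changes were -7.32 (SE 0.36, adjusted p = 4.73e-09) in SB4 and 6.403 (SE 0.82, adjusted p = 5.15e-04) in BS6. The fall in SB4 was -8.99 without SB4 replicate 2 and -6.71 without replicate 3, and the rise in BS6 7.47 without BS2 replicate 2. BS6 replicate 2, where Kcnn4 was lowest, also had the lowest osteoblast and osteocyte, osteoclast and fibroblast sums of the BS6 libraries, at 39347, 1595 and 4455 CPM. The first and second of these sums were highest in replicate 3 and the fibroblast sum in replicate 1, where Kcnn4 was highest, and the osteoclast marker Mmp9 was nearly level, at 884, 898 and 899 CPM. The part of these cells in the result was not tested.

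The leak channels on this side were Kcnk5 (chr14:20140057-20181809), which is acid- and alkali-sensitive, and Kcnk6 (chr7:29221926-29232515). Kcnk6 measured 35.3, 30.2 and 35.1 CPM in SB2 and 34.8, 34.3 and 42.6 in BS6, and 3.76, 5.55 and 4.51 in SB4 and 4.31, 4.16 and 4.00 in BS2. It changed by -2.85 (SE 0.14, adjusted p = 4.65e-09) in SB4 and 3.20 (SE 0.14, adjusted p = 7.52e-06) in BS6. Per kilobase, Kcnk6 and Kcnk1 in SB2, and Kcnk6 and Kcnk5 in BS6, were the highest two-pore-domain channels and did not differ beyond their spread. Kcnk5 measured 15.4, 15.2 and 13.98 CPM in SB2 and 19.8, 34.5 and 28.1 in BS6, against 0.426, 0.0544 and 0.501 in SB4 and 0.472, 1.22 and 1.53 in BS2 (-5.51, SE 0.34, and 4.73, SE 0.43).

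The single-span subunits Kcne4 and Kcne3, which alter the currents of Kv and KCNQ pores, were also higher in bone-rich libraries. Kcne4 (chr1:78816758-78820028) measured 41.2, 46.2 and 42.7 CPM in SB2 and 28.3, 31.4 and 37.0 in BS6, and did not exceed 1.82 CPM in SB4 or BS2. It changed by -5.06 (SE 0.17, adjusted p = 1.34e-10) and 4.61 (SE 0.27, adjusted p = 1.78e-05), and it was the highest auxiliary subunit per kilobase in SB2. Kcne3 lay at 2.96, 2.53 and 3.54 CPM in SB2 and 3.33, 2.36 and 2.29 in BS6, against at most 0.489 in the brain-rich libraries. Kcnq1, a pore that works with both, lay at 3.08, 3.06 and 4.95 CPM in SB2 and 3.20, 3.14 and 3.37 in BS6, and at 0.922, 0.761 and 0.891 in SB4 and 0.413, 0.256 and 0.0726 in BS2. Its exons share 121 bases with Kcnq1ot1 on the opposite strand, which was higher in the brain-rich libraries. The remaining inward rectifiers of the set were low. Kcnj14 reached 7.17 CPM and Kcnj5 2.78 CPM at most, both in BS6.

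**Figure D3:**
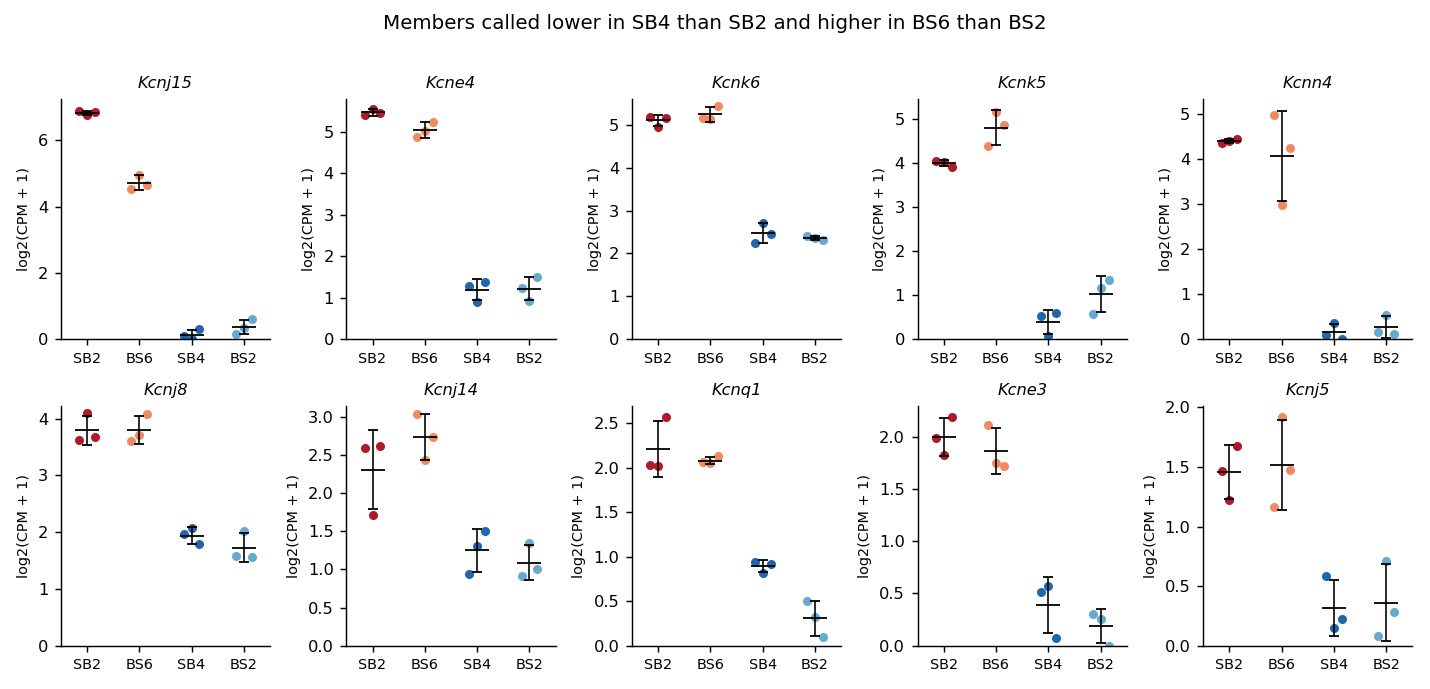
Level of the 10 members called lower in SB4 than SB2 and higher in BS6 than BS2, as log2(CPM + 1), in each library (points), with mean and SD (bars, n = 3). For each gene the 6 SB2 and BS6 libraries lie above the 6 SB4 and BS2 libraries. Kcnj15 lies at 107 to 118 CPM in SB2 and at 22.1 to 30.3 CPM in BS6.

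Both bone-rich groups were then set against each other, although labelled tissue, injured site and day all differ between BS6 and SB2. In BS6 against SB2 the median log2 fold change was 3.05 over neutrophil, 2.21 over erythroid and -2.40 over skeletal muscle markers, of which 1 erythroid gene was called, and the part of these cells in the results was not tested. Of 59 members tested, 2 were called, against 1.86% of all genes, 1 higher (1.11% of all genes) and 1 lower (0.741%), and 18 had an unadjusted p under 0.05, against 29.2% of all genes. The libraries did not overlap for 18 members, against 38.1% of all genes. By adjusted p alone 3 members passed, against 5.71% of all genes. Kcnk2 (chr1:189207930-189402273), a leak channel opened by stretch and heat, was higher in BS6, at 29.3, 20.7 and 24.6 CPM against 10.4, 8.79 and 8.30 in SB2 (1.45, SE 0.17, adjusted p = 0.0276). Kcnj15 was lower in BS6 by 2.12 on the log2 scale (SE 0.15, adjusted p = 0.0103). The libraries did not overlap for either gene. With the replicate number as a block neither was called, nor was any of the 16329 genes tested. With any of the SB2 libraries left out neither was called by edgeR, Kcnk2 was also not called without BS6 replicate 1 or replicate 3, and over all alternatives the adjusted p ranged up to 0.18 for Kcnk2 and 0.13 for Kcnj15, while the log2 fold changes stayed at 1.33 to 1.56 and -2.27 to -2.03. The exons of Kcnk2 share 604 bases with A430027H14Rik on the opposite strand, which did not exceed 0.483 CPM in these libraries. In a fit of all 12 libraries 11 of 80 members tested were called, against 7.05% of all genes. DESeq2 called 9 of 65 members tested, against 6.48% of all genes. Kcnj11 and Kcnc4 were among the lower and Kcnt1, Kcnk3, Kcnn2, Kcnq3 and Kcnh7 among the higher.

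Some members stood apart in single bone-rich libraries together with markers of another tissue. Kcnc4, a fast Kv channel of neurons and muscle, measured 12.99, 15.1 and 3.11 CPM in SB2 and 0.261, 2.84 and 3.37 in BS6. Kcnj11, given above, was low in SB2 replicate 3 as well. The 7 measured skeletal muscle markers summed to 2103, 2624 and 329 CPM in SB2 and to 94.8, 142 and 652 CPM in BS6. Among the SB2 libraries these markers were lowest in replicate 3, as were both channels, and their part in the result was not tested. SB2 replicate 2 was low in Kcnh6 and in Kcnd3, which measured 7.06, 1.60 and 6.53 CPM in SB2, while Kcna2, at 4.73, 11.9 and 5.74 CPM, was high there. In that library 6 of 52 members were above 2 times the mean of the other SB2 libraries and 3 were more than 2 times below it. These counts were 2 above and 0 below in replicate 1, and 0 above and 5 below in replicate 3. Such counts over all genes are not given here. The brain markers of replicate 2 were mixed in the same way. The neuron sum was the lowest in SB2, at 49.0 CPM, with 7 of 12 neuron markers lowest there and the other 5 highest, and 5 of 8 oligodendrocyte markers were highest there, with sums of 173, 273 and 176 CPM over the SB2 libraries. The part of these cells in the levels was not tested.

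Among the BS6 libraries, replicate 2 had the most members well above the others. Of 56 members whose BS6 mean reached 1 CPM, 12 were above 2 times the mean of the other libraries there, against 3 in each of replicates 1 and 3. Among those 12 were Kcna2, at 9.45, 36.8 and 12.9 CPM, and Kcnab2, Kcnt1, Kcnj10 and Kcnh7, given above. Members more than 2 times below that mean numbered 13 in replicate 1, 7 in replicate 2 and 8 in replicate 3, and the median ratio to the other libraries was 0.787, 1.02 and 0.957. The same counts over all genes are not given here. Between BS6 libraries, the chi-square per degree of freedom over genes was 31.9 without replicate 2, and 182 and 196 with replicate 2. This library thus stood apart beyond the members. In the same library the neuron markers summed to 171 CPM, against 70.7 and 83.6 in the others, and the 6 measured neutrophil markers summed to 24343 CPM, against 1408 and 3313. All 8 oligodendrocyte markers were highest there too among the BS6 libraries, such as Mbp, at 69.0, 185 and 54.5 CPM. So were 7 of 8 astrocyte markers and, of the 7 measured cerebellar markers, all but Zic1. Cbln3, from the latter list, measured 0.782, 14.6 and 1.46 CPM in BS6 and did not exceed 0.761 CPM in the brain-rich libraries. Zic2 was nearly level in BS6, at 50.8, 60.2 and 57.3 CPM, and Zic1 was lowest in replicate 2, at 208, 165 and 214 CPM. The part of all these cell types in these levels was not tested. Without this library, 12 members were higher and 57 lower in BS6 than in BS2, against 56.0% of all genes called in either direction, and 5 were called between BS6 and SB2, against 4.02% of all genes. Leaving it out also moved the fold change of 22 of the 68 members called in BS6 against BS2 by over 1.5 times, and the log2 fold change was then -4.61 for Kcnk12, -10.34 for Kcnd2, -6.84 for Kcnh7, -5.52 for Kcnj10 and -2.88 for Kcnt1. It was -9.08 for Kcnk9, -6.05 for Kcnk10, -5.53 for Kcna2, -7.00 for Kcnip1 and -5.84 for Kcnj16. No other BS6 or BS2 library moved more than 2 members in this way.

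**Figure D4:**
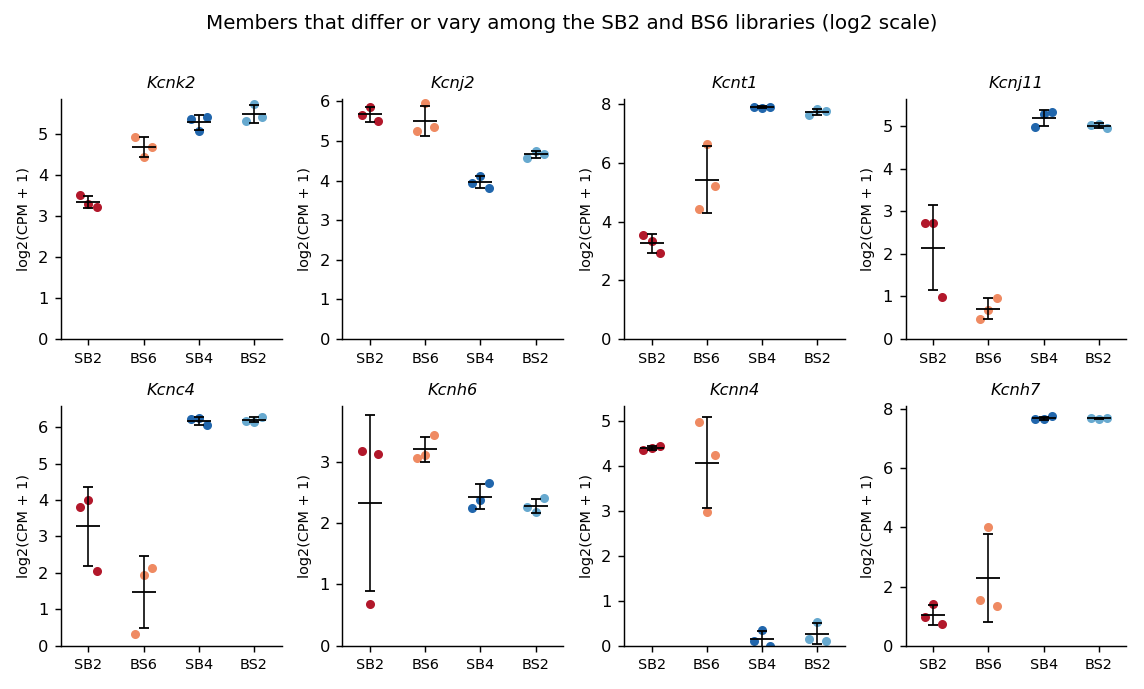
Level of 8 members as log2(CPM + 1) in each library (points), with mean and SD (bars, n = 3). Kcnk2 is higher in BS6 (20.7 to 29.3 CPM) than in SB2 (8.30 to 10.4 CPM), while Kcnj11, Kcnc4, Kcnh6, Kcnt1, Kcnn4 and Kcnh7 each have a library apart from the other libraries of SB2 or BS6.

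Between the brain-rich groups, BS2 against SB4, none of 74 members tested was called by edgeR, against 0.147% of all genes (0.0614% higher and 0.0860% lower), and none by DESeq2, while 20 had an unadjusted p under 0.05, against 11.9% of all genes. By adjusted p alone, 3 members differed, against 0.940% of all genes. Kcnj2 was higher in BS2 by 0.76 (SE 0.10, adjusted p = 3.02e-04), and its BS2 and SB4 libraries did not overlap. Kcng1 was lower by 0.51 on the log2 scale (SE 0.12, adjusted p = 0.0397), and its libraries did not overlap either. The third, a Kv pore subunit, was lower in BS2 as well, under the fold threshold. None of the 3 had an adjusted p under 0.05 in a fit of all 12 libraries, where 0.0443% of all genes were called. The spread within these groups was small, with a median coefficient of variation of 7.62% over the 72 members whose mean reached 1 CPM in SB4 and of 6.402% over 73 in BS2, against 22.7% over 52 in SB2 and 36.4% over 56 in BS6.

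How much of the brain level was left in the bone-rich libraries varied among the members. For the 12 neuron markers together it was 0.738% in SB2 of the SB4 level and 1.03% in BS6 of the BS2 level, with single markers at 0.162% to 3.52% and 0.402% to 3.45%. Among the 56 members called higher in SB4 and lower in BS6, the median was 2.99% and 4.21%, and 25 and 32 of them lay above the highest neuron marker. Kcnq3, at 0.0774% and 0.362%, Kcnj6, at 0.174% and 0.129%, and Kcnk9, at 0.191% and 0.414%, were near or below the lowest marker. These low shares depend on single libraries. Without BS6 replicate 2 the BS6 share was 0.177% for Kcnk9 and 0.241% for Kcnq3, and no member was below the lowest marker, Gad2, which then had no count. Without SB2 replicate 2 the SB2 share was 0.0436% for Kcnq3 and 0.0784% for Kcnj6, against 0.0777% for the lowest marker. Kcnma1, at 7.21% and 7.42%, Kcnn3, at 22.5% and 27.8%, Kcnh2, at 23.7% and 30.0%, and Kcnk1, at 43.1% and 24.2%, lay well above them. These members were chosen by the same comparisons, and the shares are a description with no test.

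**Figure D5:**
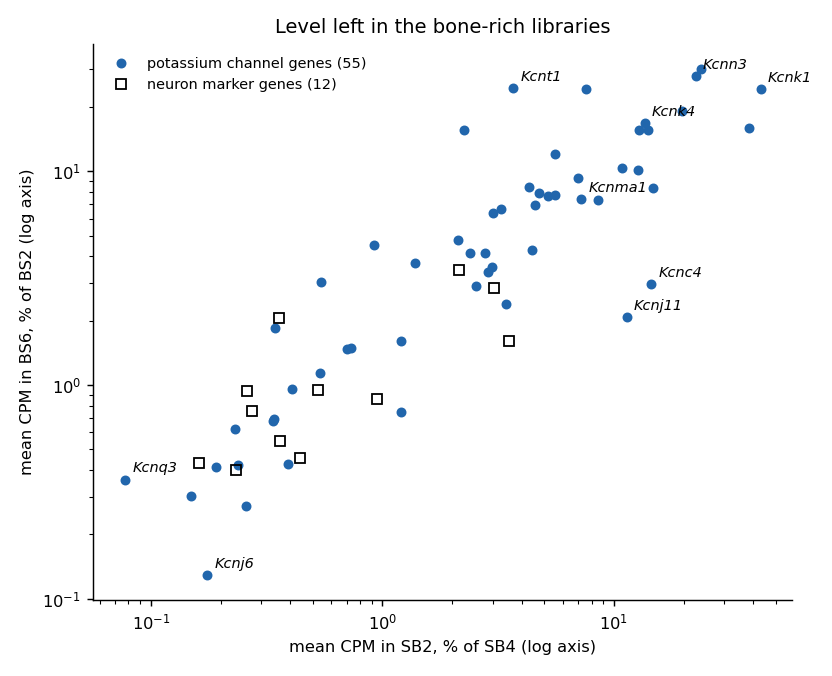
Mean level in SB2 as a percentage of SB4 (x axis, log scale) and in BS6 as a percentage of BS2 (y axis, log scale) for 55 of the 56 members called higher in SB4 and lower in BS6 (points) and 12 neuron marker genes (squares). Kcnh5, with no count in SB2, cannot be drawn. Many members, such as Kcnk1 and Kcnn3, lie above the neuron markers, which reach 3.52% and 3.45%.

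Genes of 14 known channel partners outside the family were read from a list, and 13 were found. Of these, 11 were higher in SB4 and 1 lower, against 27.8% and 28.6% of all genes, with a median log2 fold change of 5.34, and 11 were lower in BS6 and 1 higher, against 26.5% and 29.0% of all genes, with a median of -4.61. Dpp6 and Dpp10, the membrane partners of Kcnd2, measured 250 to 290 and 222 to 255 CPM in SB4 and did not exceed 3.36 and 0.533 CPM in SB2. Lrrc26, a partner of Kcnma1 in gland cells, had no count in SB2 and measured 4.33, 3.04 and 2.40 CPM in SB4. Abcc9 was the partner gene with the reverse direction. In BS6 against SB2 the 10 tested partner genes had a median of 0.38, and in BS2 against SB4 the 13 had a median of -0.12.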

How the data were processed

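The authors deposited raw read counts per gene for the 12 libraries, from poly(A) RNA sequenced in pairs, trimmed with fastp and aligned with HISAT2 2.1.0 to mm10. The counter, its annotation and strand use are not given in the sources used here, nor whether the deposited counts precede the batch adjustment of the study. Groups came from the labels, and 0 columns of other samples were found. Genes were filtered with filterByExpr (minimum count of 10) and scaled by TMM. Each pair of groups was fitted on its own with edgeR 4.0.16 in R 4.3.3 (quasi-likelihood test, Benjamini-Hochberg adjustment over all genes), and calls needed an adjusted p below 0.05 together with a change of more than 1 on the log2 scale, up or down. DESeq2 1.42.0 and other scalings, filters and fits were alternatives. Exon lengths came from GENCODE M21. The scripts were tested on simulated data. Named genes were, per comparison and class, those with the largest called changes, the highest level per kilobase, stable members and fixed channels of known cell types. Other members (such as Kcnc4, Kcnd3, Kcnj9, Kcnip3, Kcnmb1, Kcnn3 and Kcnq5) were named after their values were seen. The members and lists were chosen with earlier results of these data known. A few members are counted in the totals and not reported here by name. Totals of 14126082 to 18972654 counts put the floor of 3 counts at 0.163 to 0.218 CPM.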

Additional observations from a re-analysis of the deposited data

Results flagged for a closer look

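The change from the earlier to the later day differed between the groups labelled brain cortex and those labelled bone for 74 of 80 members tested (62 more positive in SB4 against SB2, 12 more negative), by the interaction term of 1 edgeR fit of all 12 libraries with Benjamini-Hochberg adjustment, and 73.6% of all genes were called in the same way. Kcna5, Kcnd1, Kcnh6, Kcnn1 and Kcns1 were among the 6 members without such a call. With 1 library left out, 73 to 75 members were called. Since the earlier group is bone-rich under one label and brain-rich under the other, day and tissue content cannot be told apart in this term.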

How the results depend on the processing

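The counts in SB4 against SB2 (60 higher, 11 lower) and BS6 against BS2 (12 higher, 56 lower) stayed within 1.5 times under each alternative run. With 1 library left out they were 59 to 62 higher and 11 lower, and 12 to 13 higher and 54 to 57 lower, or 70 to 73 and 67 to 70 in all. In SB4 against SB2, leaving out 1 library moved the fold change of at most 5 of 71 called members by over 1.5 times. No change of a named gene that was called, in the main fit or in an alternative, reversed its direction. Changes of direction without a call were not counted. In BS6 against SB2, where 2 of 59 members were called (1 higher, 1 lower), the count was less stable. DESeq2 called 9 of 65 (6 higher, 3 lower), and a fit of all 12 libraries 11 of 80 (8 higher, 3 lower). Adjusted p alone gave 3 (2 higher, 1 lower). With 1 library left out the count ranged from 0 to 5 (0 to 4 higher, 0 to 1 lower). It was 0 without each SB2 library and 5 without BS6 replicate 2. In BS2 against SB4, with 0 called, adjusted p alone gave 3 (1 higher, 2 lower). With the replicate number as a block, counts were 59 higher and 11 lower in SB4 against SB2, 12 and 56 in BS6 against BS2, and 0 (0 higher, 0 lower) in BS6 against SB2 and in BS2 against SB4. Of all genes, this block called 56.2% in SB4 against SB2, 54.9% in BS6 against BS2, 0% in BS6 against SB2 and 0.375% in BS2 against SB4. The deviations of same-numbered libraries from their group means correlated at -0.10 to 0.08 over genes, so the numbers are not taken to pair them. Scaled by total counts only, summed levels moved by more than 1 SD in 8 cases: 6810 CPM for the family in BS2, 87.3, 340 and 335 CPM for two-pore-domain channels in SB2, SB4 and BS2, 844 CPM for inward rectifiers in BS2, 89.8 CPM for calcium- and sodium-activated channels in SB2, 2076 CPM for Kv pore subunits in BS2 and 1015 CPM for KCNQ channels in BS2. The cause of these changes was not tested.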
